A study of Populus trichocarpa with 9 samples.

Results

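PtrCCoAOMT1 (Potri.009G099800) and PtrCCoAOMT2 (Potri.001G304800) are caffeoyl-CoA O-methyltransferase genes of Populus trichocarpa, and they were followed here through 9 RNA-seq libraries of stem-differentiating xylem (SDX) protoplasts. They were taken by their gene IDs, 2 of the 41335 genes in the deposited table. By their IDs the first lies on chromosome 9 and the second on chromosome 1. Caffeoyl-CoA O-methyltransferase moves a methyl group from S-adenosylmethionine to the ring of caffeoyl-CoA and so makes feruloyl-CoA. Feruloyl-CoA is then reduced toward coniferyl alcohol, the monolignol of guaiacyl lignin, and further hydroxylation and methylation lead to sinapyl alcohol, the monolignol of syringyl lignin. The enzyme is best known from lignifying xylem, and angiosperm trees carry it as a small gene family.

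SDX protoplasts are cells of the differentiating xylem freed of their walls, here from 6-month-old trees of the clone Nisqually-1. Every library came from a population of protoplasts transfected with a plasmid carrying GFP (sGFP) behind the 35S promoter and incubated for 12 h. The 3 GFP libraries received that plasmid with no transcription factor (TF), the 3 PtrHSFB3-1 libraries received one that also carried PtrHSFB3-1, a class B heat shock factor gene, and the 3 PtrMYB092 libraries received one that also carried PtrMYB092, a MYB factor gene, both behind a 35S promoter. The strong viral promoter does not copy where the native genes are expressed, no source used here gives the share of cells that took up a plasmid, and the single value of a TF gene does not separate plasmid from native transcript. The study describes biological replicates, but no label says that the 3 libraries of a construct came from separate trees. The p-values thus weigh differences between constructs only against the spread of these libraries, which need not be the spread between trees. The comparisons ask whether each TF changes the level of the 2 genes, and whether it changes both by the same factor.

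The deposited values are whole numbers on a scale that is not given, with column totals of 428358 to 495579, so the reads behind a value are unknown. The replicate numbers of the 3 constructs go together, since libraries with the same number deviated alike from the mean of their construct. PtrHSFB3-1 was at 19859 to 42965 in its own libraries and at 53 to 67 in the GFP libraries, and PtrMYB092 was at 6922 to 17727 in its own libraries and at 4 or 5 in the GFP libraries. These values go with the titles of the libraries, although another label of PtrMYB092 replicates 2 and 3 names PtrHSFB3-1. In the PtrMYB092 libraries PtrHSFB3-1 was at 119, 105 and 165, above its 3 GFP values. The 5 secondary wall cellulose synthase genes checked as markers of xylem building its wall (PtCesA4, PtCesA7, PtCesA8, PtCesA17 and PtCesA18) were at 0 to 2 in every library, so the cellulose synthase part of that marker list was near 0 in all 3 groups. PtrActin, a housekeeping gene, lay between 86 and 113.

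PtrCCoAOMT1 was lowest with GFP, higher with PtrHSFB3-1 and highest with PtrMYB092. Its deposited values were 47, 32 and 35 in GFP replicates 1, 2 and 3. They were 96, 72 and 81 in the PtrHSFB3-1 libraries and 233, 239 and 364 in the PtrMYB092 libraries. No library of one construct overlapped with a library of another, and the order of the constructs was the same within each replicate number. Of the 7653 genes tested, 20.4% had all 3 PtrHSFB3-1 libraries above all 3 GFP libraries. For PtrMYB092 the share was 13.9% above GFP and 16.4% above PtrHSFB3-1. After scaling of the libraries the means of PtrCCoAOMT1 were 34.5 ± 7.02 with GFP, 89.4 ± 19.8 with PtrHSFB3-1 and 281.2 ± 77.0 with PtrMYB092 (SD, n = 3 each).

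PtrCCoAOMT2 had the same order of constructs and far larger steps. Its deposited values were 162, 43 and 46 in the GFP libraries, 755, 265 and 398 in the PtrHSFB3-1 libraries and 2536, 1648 and 2711 in the PtrMYB092 libraries. Again no construct overlapped with another. Within GFP and within PtrHSFB3-1, replicate 1 was the high library, and with PtrMYB092 replicate 3 was slightly above it. The scaled means were 75.9 ± 61.1 with GFP, 518.6 ± 316.2 with PtrHSFB3-1 and 2329 ± 634 with PtrMYB092 (SD, n = 3 each).

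**Figure D1:**
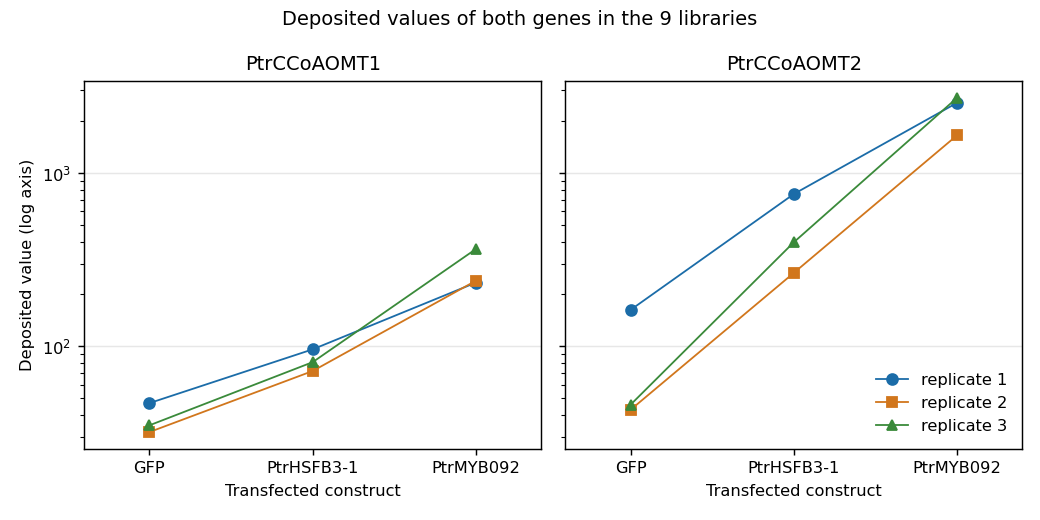
Deposited values of PtrCCoAOMT1 (left) and PtrCCoAOMT2 (right) on a shared log axis against the transfected construct, with a line joining the libraries of 1 replicate number. Every line climbs from GFP to PtrHSFB3-1 to PtrMYB092, and the GFP value of PtrCCoAOMT2 in replicate 1 (162) stands above those in replicates 2 and 3 (43 and 46).

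The libraries of a construct were further apart for PtrCCoAOMT2 than for PtrCCoAOMT1. On the log2 scale (scaled value + 1) the SD of PtrCCoAOMT1 was 0.28 with GFP, 0.31 with PtrHSFB3-1 and 0.37 with PtrMYB092. For PtrCCoAOMT2 it was 1.06, 0.87 and 0.43 in the same order. With GFP, replicate 1 was at 3.61 times the mean of replicates 2 and 3 for PtrCCoAOMT2 and at 1.39 times for PtrCCoAOMT1. With PtrHSFB3-1 the same ratio was 2.56 for PtrCCoAOMT2 and 1.41 for PtrCCoAOMT1, and with PtrMYB092 it was 1.21 and 0.80. Across the 7653 tested genes the median log2 excess of replicate 1 over the others was -0.01 with GFP and 0.01 with PtrHSFB3-1. For PtrCCoAOMT2 that excess was 1.83 and 1.39. It was not particular to PtrCCoAOMT2 among the 20 tested genes of the monolignol pathway. With GFP, replicate 1 was above the mean of the others for 17 of the 20, with a median ratio of 2.67, and 6 of them, led by PtrPAL4 at 13.7, had a larger ratio than PtrCCoAOMT2.

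With PtrHSFB3-1 against GFP both genes were higher. PtrCCoAOMT1 rose 2.53-fold (95% interval 1.70 to 3.79), a log2 fold change of 1.34 ± 0.26 (SE) with an adjusted p of 0.0114 in limma over all tested genes. PtrCCoAOMT2 rose 7.26-fold (95% interval 2.90 to 18.1), a log2 fold change of 2.86 ± 0.58 with an adjusted p of 0.0152. These fits leave out the replicate number. With it as a block, the SE was 0.19 for PtrCCoAOMT1 and 0.29 for PtrCCoAOMT2, and the adjusted p 0.000713 and 0.0001 in limma. Both were thus among the genes called higher, at an adjusted p under 0.05 and a fold over 2, which were 7.08% of the tested genes (10.2% with the replicate number as a block in the fit). By log2 fold change PtrCCoAOMT2 ranked 115 and PtrCCoAOMT1 ranked 513 of 7653. In both genes all 3 PtrHSFB3-1 libraries lay above all 3 GFP libraries, as they did for 20.4% of the tested genes.

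The 3 differences within a replicate number were close to each other for PtrCCoAOMT1, at 2.61, 2.47 and 2.67 times GFP. For PtrCCoAOMT2 they were 5.96, 6.76 and 9.96 times GFP. The lowest of these belongs to replicate 1, whose excess over the other replicates was larger with GFP than with PtrHSFB3-1. In the fit without a term for the replicate number, the call of PtrCCoAOMT1 was lost without PtrHSFB3-1 replicate 3 (adjusted p = 0.0577), and that of PtrCCoAOMT2 without PtrHSFB3-1 replicate 3 (0.0637) or without GFP replicate 2 (0.0578) or 3 (0.0601), all by limma. With the replicate number as a block, no omission of a single library ended either call, and the adjusted p stayed at 0.00798 or below for PtrCCoAOMT1 and at 0.00166 or below for PtrCCoAOMT2.

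With PtrMYB092 against GFP both genes were higher still. PtrCCoAOMT1 rose 7.86-fold (95% interval 5.26 to 11.8), a log2 fold change of 2.97 ± 0.26 with an adjusted p of 0.000377 in limma. PtrCCoAOMT2 rose 35.7-fold (95% interval 14.3 to 89.3), a log2 fold change of 5.16 ± 0.58 with an adjusted p of 0.0011. With the replicate number as a block, the SE was 0.19 for PtrCCoAOMT1 and 0.29 for PtrCCoAOMT2, and the adjusted p 1.17e-05 and 6.04e-06 in limma. PtrCCoAOMT2 ranked 19 and PtrCCoAOMT1 ranked 96 of the 7653 tested genes, of which 4.6% were called higher (6.06% with the block). Neither gene overlapped between PtrMYB092 and GFP, with every PtrMYB092 library the higher, which held for 13.9% of the tested genes.

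Within a replicate number PtrCCoAOMT1 was at 5.69, 7.95 and 11.6 times GFP, and PtrCCoAOMT2 at 17.97, 40.8 and 65.7 times GFP. For PtrCCoAOMT2 the lowest of these folds belongs to replicate 1, whose GFP library was the high one. Both calls held without any single library, and both were lost when PtrMYB092 replicates 2 and 3, the libraries with the conflicting label, were left out together (adjusted p = 0.0598 and 0.0808 by limma, with 1 PtrMYB092 library assumed to vary like the other groups). The log2 fold changes in that fit were 2.80 and 5.39.

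The effects of the TFs were also compared directly, with PtrMYB092 against PtrHSFB3-1. PtrCCoAOMT1 was 3.10-fold higher with PtrMYB092 (95% interval 2.07 to 4.64), a log2 fold change of 1.63 ± 0.26 with an adjusted p of 0.00333 in limma. PtrCCoAOMT2 was 4.92-fold higher (95% interval 1.97 to 12.3), a log2 fold change of 2.30 ± 0.58 with an adjusted p of 0.0277. With the replicate number as a block, the SE was 0.19 for PtrCCoAOMT1 and 0.29 for PtrCCoAOMT2, and the adjusted p 0.00018 and 0.000269 in limma. Of all tested genes 4.55% were called higher in this comparison (5.63% with the block), and 16.4% had all 3 PtrMYB092 libraries above all 3 PtrHSFB3-1 libraries, as both of these genes did.

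Within a replicate number PtrCCoAOMT1 was 2.18, 3.22 and 4.35 times, and PtrCCoAOMT2 3.01, 6.04 and 6.59 times, its PtrHSFB3-1 value. The call of PtrCCoAOMT1 held without any single library. That of PtrCCoAOMT2 was lost without PtrHSFB3-1 replicate 2 (adjusted p = 0.0917) or 3 (0.103) or without PtrMYB092 replicate 1 (0.0699), 2 (0.0541) or 3 (0.0939) in limma, and with the replicate number as a block it held in every such omission. Both calls were lost without PtrMYB092 replicates 2 and 3 together (adjusted p = 0.0804 for PtrCCoAOMT1 and 0.212 for PtrCCoAOMT2).

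The folds within replicate numbers can be read beside the value of the transfected TF gene. In the PtrMYB092 libraries that value was 6922, 11036 and 17727 in replicates 1, 2 and 3, and the folds of both genes over GFP stood in the same order. In the PtrHSFB3-1 libraries it was 19859, 31149 and 42965, and the folds of PtrCCoAOMT2 stood in that order while those of PtrCCoAOMT1 did not. The levels of PtrCCoAOMT2 did not stand in the order of the PtrMYB092 value, being lower in replicate 2 (1648) than in replicate 1 (2536). The deposited values of PtrCCoAOMT1 did (233, 239 and 364), but after scaling of the libraries they did not (241.7, 232.0 and 370.0). With 3 libraries a construct, no relation between TF value and response was tested.

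**Figure D2:**
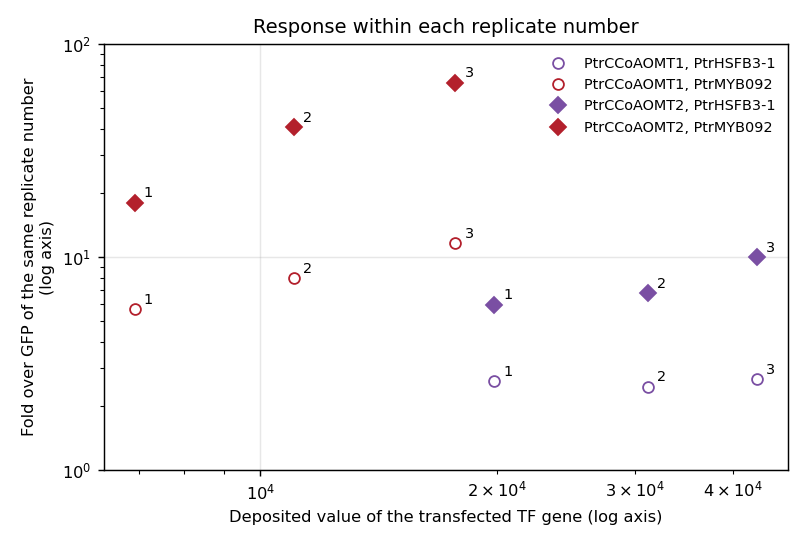
Fold of each gene over the GFP library of the same replicate number (log axis) against the deposited value of the transfected TF gene (log axis), with the replicate number beside each point. With PtrMYB092 the points of PtrCCoAOMT2 run from 17.97 to 65.7 and those of PtrCCoAOMT1 from 5.69 to 11.6, and with PtrHSFB3-1 the 3 points of PtrCCoAOMT1 lie between 2.47 and 2.67.

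The larger folds of PtrCCoAOMT2 changed the makeup of the pair. The share of PtrCCoAOMT2 in the summed deposited value of the 2 genes was 77.5%, 57.3% and 56.8% in the GFP libraries. It was 88.7%, 78.6% and 83.1% in the PtrHSFB3-1 libraries and 91.6%, 87.3% and 88.2% in the PtrMYB092 libraries. All GFP shares lay below all shares of both TFs, the shares of the TFs overlapped, and within each replicate number the order was GFP, PtrHSFB3-1, PtrMYB092. The means were 63.9% ± 11.8, 83.5% ± 5.05 and 89.0% ± 2.25 (SD, n = 3 each). The lengths of the transcripts are not given, so a share above 50% does not say that more PtrCCoAOMT2 molecules were present, and the size of a change of the share in percentage points depends on them too. The direction of that change, and the factor by which the ratio of the genes changes, depend neither on length nor on the scaling of the libraries. For length this holds only if a value is proportional to the reads of its own gene, which is not known here.

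**Figure D3:**
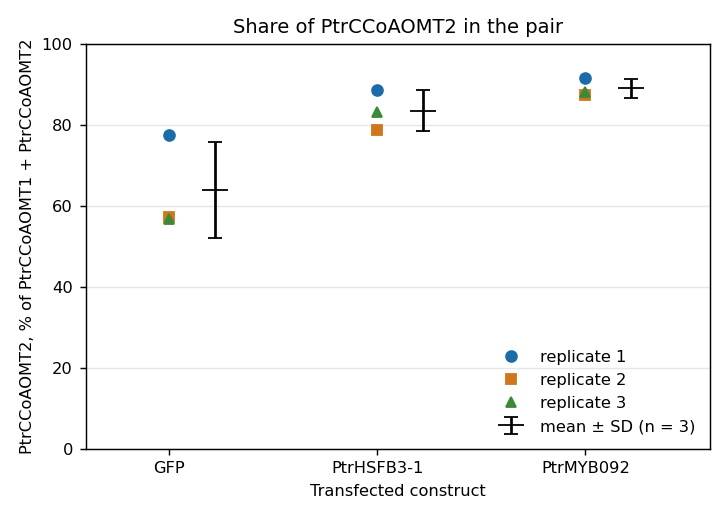
Share of PtrCCoAOMT2 in the summed deposited value of PtrCCoAOMT1 and PtrCCoAOMT2 by construct, with 1 point per library and the mean ± SD of 3 libraries beside the points. GFP replicate 1 (77.5%) lies above the other GFP libraries (57.3% and 56.8%) but below every library of either TF.

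The ratio of PtrCCoAOMT2 to PtrCCoAOMT1 had a geometric mean of 1.83 with GFP, 5.22 with PtrHSFB3-1 and 8.24 with PtrMYB092. On the log2 scale the ratio was 0.87 ± 0.79, 2.38 ± 0.55 and 3.04 ± 0.35 (SD, n = 3 each). The constructs differed in this ratio beyond the spread of their libraries by an exact permutation test of the F statistic over all 1680 arrangements of the 9 libraries (p = 0.0143). When the constructs were exchanged only within a replicate number, the exact permutation p was 0.0278, the smallest that the 216 arrangements allow. The first p was 0.0536 without PtrHSFB3-1 replicate 2 or without PtrMYB092 replicate 1.

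Taken by pairs of constructs, the log2 ratio was 1.52 higher with PtrHSFB3-1 than with GFP, 2.17 higher with PtrMYB092 than with GFP, and 0.66 higher with PtrMYB092 than with PtrHSFB3-1. The exact two-sided permutation p-values were 0.1, 0.1 and 0.3, or 0.15, 0.15 and 0.3 after Benjamini-Hochberg adjustment over the 3 pairs, and 0.1 is the smallest that 3 libraries against 3 can give. Within replicate numbers 1, 2 and 3 the difference from GFP was 1.19, 1.45 and 1.90 for PtrHSFB3-1 and 1.66, 2.36 and 2.50 for PtrMYB092. PtrMYB092 exceeded PtrHSFB3-1 by 0.47, 0.91 and 0.60. All 9 of these differences had the same sign.

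PtrCCoAOMT2 also made up most of what the pair gained in scaled value. In scaled values the PtrHSFB3-1 libraries exceeded the GFP library of the same number by 68.5, 42.8 and 53.1 for PtrCCoAOMT1 and by 726.5, 225.8 and 376.0 for PtrCCoAOMT2. PtrCCoAOMT2 was thus 91.4%, 84.1% and 87.6% of the gain of the pair. In the PtrMYB092 libraries it was 92.6%, 88.5% and 88.9% of the gain. Like the share, these percentages depend on the lengths of the transcripts, which are not given.

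PtrCCoAOMT3 (Potri.008G136600), the third gene of that name in the primer table of the study, was listed at 0 in 6 libraries and at 1 in the other 3, which were PtrHSFB3-1 replicate 2 and PtrMYB092 replicates 2 and 3. It was not tested. No source used here says how the counting divided reads shared by similar genes, so part of the value of one gene could belong to the other.

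Among the 22 monolignol genes with an ID in that primer table, 20 were high enough to be tested, PtrCCoAOMT1 and PtrCCoAOMT2 among them. PtrHCT1 and PtrHCT6 reached 10 or more in 3 libraries, as testing required, only through the PtrMYB092 libraries. PtrPAL2, PtrPAL4, PtrPAL5, Ptr4CL5 and PtrC3H3 were under 10 in GFP replicates 2 and 3 and were tested only through libraries of the TFs. These were all called higher with both TFs against GFP. The counts and medians below thus rest in part on genes for which a high level with a TF was a condition of testing. The list names enzymes from phenylalanine ammonia-lyase (PAL), the entry to the pathway, to cinnamyl alcohol dehydrogenase (CAD), its last step. With PtrHSFB3-1 against GFP 11 of the 20 were called higher and 0 lower (15 and 1 with the replicate block), beside 7.08% of all tested genes called higher (10.2% with the block). Their median log2 fold change was 1.90, beside 0.01 over all tested genes. With PtrMYB092 against GFP 18 were called higher and 0 lower (19 and 0 with the block), beside 4.6% of all tested genes (6.06%), with medians of 4.08 and -0.05. With PtrMYB092 against PtrHSFB3-1 12 were called higher and 0 lower (15 and 0 with the block), beside 4.55% of all tested genes (5.63%), with medians of 1.84 and 0.02. PtrCCoAOMT2 lay above the median of the list in all 3 comparisons, at rank 6, 4 and 7 of 20, and PtrCCoAOMT1 lay below it, at rank 14, 14 and 13. Both comparisons with GFP use the same 3 GFP libraries. In such bulk samples a smaller share of responding cells cannot be told apart from less RNA per cell.

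**Figure D4:**
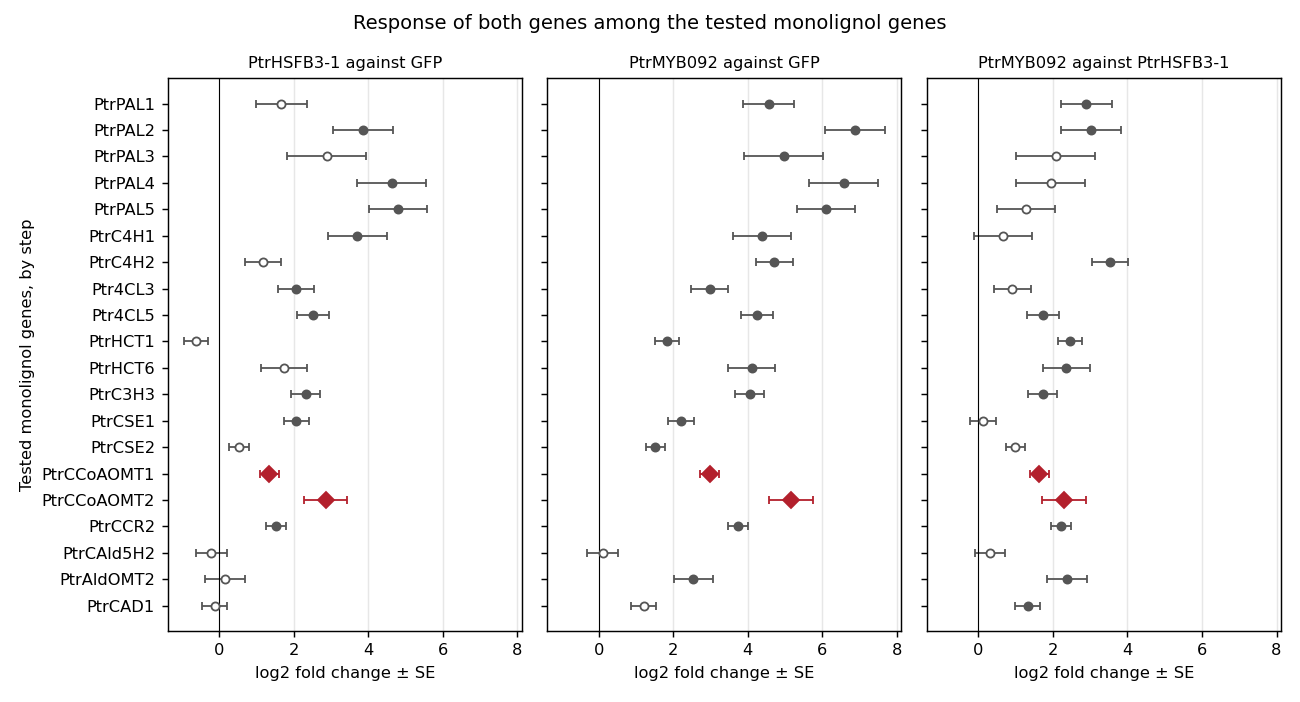
Log2 fold change ± SE of the 20 tested monolignol genes in the order of the pathway for the 3 comparisons, with filled symbols for genes called higher and red diamonds for PtrCCoAOMT1 and PtrCCoAOMT2. PtrCCoAOMT2 lies to the right of PtrCCoAOMT1 in every comparison (2.86 and 1.34, 5.16 and 2.97, 2.30 and 1.63).

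The steps before caffeoyl-CoA did not all respond as the CCoAOMT genes did. PtrC3H3 was called higher by log2 2.32 ± 0.39 with PtrHSFB3-1 and 4.05 ± 0.39 with PtrMYB092, between PtrCCoAOMT1 and PtrCCoAOMT2 in both. Its deposited values were 13, 5 and 6 with GFP, 54, 26 and 31 with PtrHSFB3-1 and 127, 106 and 149 with PtrMYB092. It was tested only through libraries of the TFs, and its folds rest on low GFP values. The gene encodes a cytochrome P450 that hydroxylates the shikimate ester of p-coumarate. PtrHCT6, a hydroxycinnamoyltransferase that makes and cleaves this ester, was at 1.74 ± 0.63 with PtrHSFB3-1, which was called only with the replicate block (adjusted p = 0.105 without and 0.00101 with it in limma), and was called higher at 4.10 ± 0.63 with PtrMYB092. Its deposited values were 4, 1 and 1 with GFP, 20, 4 and 4 with PtrHSFB3-1 and 61, 32 and 40 with PtrMYB092. A high level in the PtrMYB092 libraries was thus a condition of its being tested, and its folds rest on GFP values near 0. PtrHCT1 was at -0.63 ± 0.32 with PtrHSFB3-1, a change that was called lower only with the block (adjusted p = 0.224 without and 0.00916 with it in limma), while it was called higher with PtrMYB092 at 1.84 ± 0.32. Its deposited values were 19, 11 and 9 with GFP, 9, 6 and 5 with PtrHSFB3-1 and 52, 35 and 42 with PtrMYB092, and it too was tested only through the PtrMYB092 libraries. The fitted change of PtrHCT1 with PtrHSFB3-1 thus had the opposite sign to those of both CCoAOMT genes.

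Caffeoyl shikimate esterase (CSE) releases caffeic acid on the way to caffeoyl-CoA. PtrCSE1 was called higher with both TFs, at log2 2.07 ± 0.34 with PtrHSFB3-1 and 2.20 ± 0.34 with PtrMYB092. Its difference between the TFs was 0.13 (95% interval -0.64 to 0.91), an interval that lies below the differences of 1.63 for PtrCCoAOMT1 and 2.30 for PtrCCoAOMT2. PtrCSE2 was at 0.53 ± 0.26 with PtrHSFB3-1, which was not called, and was called higher at 1.52 ± 0.26 with PtrMYB092.

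Of the steps after feruloyl-CoA, PtrCCR2, the reductase that uses feruloyl-CoA, was called higher in all 3 comparisons, at 1.52 ± 0.27, 3.75 ± 0.27 and 2.22 ± 0.27. Its deposited values were 43, 30 and 22 with GFP, 87, 76 and 68 with PtrHSFB3-1 and 407, 318 and 430 with PtrMYB092. No construct overlapped with another, as for PtrCCoAOMT1. In the 3 comparisons 20.4%, 13.9% and 16.4% of all tested genes were separated in the same direction. PtrAldOMT2, the O-methyltransferase of the later methylation toward sinapyl alcohol, was at 0.16 ± 0.53 with PtrHSFB3-1, which was not called, and was called higher at 2.54 ± 0.53 with PtrMYB092. PtrCAld5H2, the hydroxylase of the syringyl branch, was not called with either TF (-0.21 ± 0.41 and 0.11 ± 0.41). PtrCAld5H1 was at 0 to 2 outside the PtrMYB092 libraries and at 1, 5 and 12 in them, and was not tested. The later methyltransferase and the hydroxylase of the syringyl branch were thus not called with PtrHSFB3-1. For PtrAldOMT2 the 95% interval of this change was -1.05 to 1.37. It held the log2 change of PtrCCoAOMT1 (1.34) but not that of PtrCCoAOMT2 (2.86). The interval of PtrCAld5H2, -1.13 to 0.71, lay below both. Whether these genes differed from the CCoAOMT genes in their response was not tested.

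The genes whose log2 values followed each CCoAOMT gene most closely over the 9 libraries were listed by Pearson's r, as a description. All points share the same 9 libraries, 3 constructs and replicate numbers, and a high r says little of the size of a change. For PtrCCoAOMT2 the highest r belonged to PtrC3H3 (0.997), followed by Potri.002G146400 (0.996), which the sources used here do not name. For PtrCCoAOMT1 it belonged to the unnamed gene Potri.004G142000 (0.993), which spanned only 15 to 36 in deposited values, and PtrCCR2 was at rank 4 (0.987). The CCoAOMT genes had an r of 0.977 with each other, which put PtrCCoAOMT2 at rank 21 for PtrCCoAOMT1 and PtrCCoAOMT1 at rank 33 for PtrCCoAOMT2.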

How the data were processed

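The members and gene lists were chosen with earlier results of these data known. Reads were aligned by the authors with Bowtie 2 to the Phytozome genome of the species, while TopHat stands in the submitters' processing notes; no source used here gives the counting tool or strand setting. The deposited whole numbers, labelled raw counts, were treated as a score on a scale not given: of genes summing to 2 over 2 libraries, 81.9% to 97.5% had 1 in each (36 pairs of libraries), where random reads give at most 50%.

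Values were scaled by TMM without weights (trimming 30% of ratios and 5% of levels), which multiplied libraries by 0.904 to 1.16, and log2(value + 1) was fitted with limma 3.58.1 (R 4.3.3) over all 9 libraries with a variance trend and Benjamini-Hochberg adjustment. Fold changes are on that scale. Genes summing to 15 or more, with 10 or more in 3 or more libraries, were tested, 7653 of the 27542 above 0. The script was tested on simulated data. Calls needed an adjusted p under 0.05 and a fold over 2 or under 0.8. The ratio of the 2 genes was tested with exact permutation in Python 3.11.15.

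Deviations from construct means correlated at 0.52 to 0.86 between same-numbered libraries (9 pairs) and at -0.71 to 0.27 otherwise (18 pairs), so the numbers pair the libraries; what a number stands for is not given. Genes named were the pair, PtrCCoAOMT3, both TFs, PtrActin, the neighbouring steps and the closest by r. Alternatives were the block, other scalings, pseudocounts and filters, and omitted libraries. The reference table holds 0 of the gene IDs, so no coordinates or protein sequences are given.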

Additional observations from a re-analysis of the deposited data

How the results depend on the processing

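No setting turned a direction. Scaling, pseudocount, filter, transgenes left out, a fit of only 6 libraries and the replicate block changed no call of PtrCCoAOMT1 or PtrCCoAOMT2. Scaling to column totals moved the median log2 change of all tested genes to -0.25, -0.13 and 0.21 in the 3 comparisons, and the pair then gave 1.06 and 2.58 with PtrHSFB3-1, 2.89 and 5.07 with PtrMYB092, and 1.82 and 2.49 between the TFs. Without any filter 902, 762 and 864 genes were called higher (542, 352 and 348 with it), from more genes tested. Without PtrMYB092 replicates 2 and 3 the pair gave 2.80 and 5.39 against GFP and 1.47 and 2.54 against PtrHSFB3-1, none of them called, and 1 and 27 genes were called higher.

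With 1 library left out, or 1 replicate number of all constructs, the log2 changes of PtrCCoAOMT1 and PtrCCoAOMT2 ranged from 1.20 to 1.53 and 2.42 to 3.50 with PtrHSFB3-1, from 2.73 to 3.28 and 4.75 to 5.82 with PtrMYB092, and from 1.39 to 1.90 and 1.88 to 2.74 between the TFs. Without replicate 2 or 3 of all constructs both genes lost their calls, except PtrCCoAOMT1 with PtrMYB092 against GFP without replicate 2; without replicate 1 all calls held. The genes called higher numbered 24 to 556, 0 to 375 and 1 to 374 in these omissions. The 0, for PtrMYB092 against GFP without replicate 3, stands beside 258 genes at an unadjusted p under 0.05 and a fold over 2 in limma. With the replicate block and the same omissions, settings chosen after seeing the data, every call of the pair held, the counts were 548 to 804, 301 to 479 and 221 to 511, and the lowest of the last was without replicate 3.

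For the ratio of the pair, the exact permutation p ranged from 0.0107 to 0.2 in these omissions; with 2 libraries a construct the exact test cannot go below 0.0667. With 1 added to both values, or with the share in percent, the exact permutation p was 0.0107.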

Other observations

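The primers that the study designed for RT-qPCR of these genes were compared base by base without gaps over the 32 listed primer pairs, since such primers decide which transcript an RT-qPCR value belongs to. Forward primers were compared only with forward primers, and reverse primers only with reverse primers. The pair listed for PtrCCoAOMT1 resembled the pair listed for PtrCCR2, with 20 of 25 identical bases in the forward and 22 of 25 in the reverse primer. No other 2 forward or 2 reverse primers listed for different enzymes shared more than 13 bases, and the primers of PtrCCoAOMT1 and PtrCCoAOMT2 shared 8 and 9. The primers are given 5′ to 3′, with the bases identical between both in capitals.
PtrCCoAOMT1 forward: CaGTaATTCAGAAAGCTGGTgTtGc
PtrCCR2 forward: CgGTgATTCAGAAAGCTGGTcTgGa
PtrCCoAOMT1 reverse: GCATCCACAAAGATGAAaTCAaAAc
PtrCCR2 reverse: GCATCCACAAAGATGAAgTCAtAAg
The RNA-seq values of these genes rest on no primer. Where in the transcripts the primers lie was not determined.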
